A study of Mus musculus with 4 samples.

Results

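The genes of the CD8 coreceptor and of the T cell receptor complex were compared between CD8αβ+ intraepithelial lymphocytes of the small intestine (IELs) and CD8αβ+ T cells of the spleen (SPLs). The members were the 10 genes *Cd8a*, *Cd8b1*, *Cd4*, *Cd3d*, *Cd3e*, *Cd3g*, *Cd247*, *Fcer1g*, *Cd5* and *Thy1*, taken by name from the annotation of the arrays. All 10 were found, with 19 of the 41174 probes on the array, and all 19 passed the filter on dim probes. Each of the 4 arrays held RNA of 1 sample, and each group had 2 samples, called here IEL 1, IEL 2, SPL 1 and SPL 2. The donors of both groups were male wild-type mice of 8 to 12 weeks, with no treatment named in the labels, on the C57BL/6 background per the methods, and each sample was pooled from several mice, so that differences between single animals cannot be seen. Per the methods, the cells carried CD45, CD3, CD8α, CD8β and TCRβ on their surface when sorted. That gate selected cells by the proteins of *Cd8a*, *Cd8b1* and the CD3 genes, so the presence of these transcripts checks the labels and is not a result. In sorted bulk RNA, fewer cells that express a gene and less of its RNA per cell cannot be told apart.

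The T cell receptor binds antigen through a pair of variable chains that have almost no cytoplasmic part of their own. Signals leave the receptor through the CD3γ, CD3δ and CD3ε chains and a dimer of CD3ζ, the main product of *Cd247*, all of which carry immunoreceptor tyrosine-based activation motifs (ITAMs). The eta chain is a rarer splice product of *Cd247*. *Fcer1g* encodes the Fc receptor gamma chain, an ITAM adaptor related to CD3ζ that serves Fc receptors of macrophages, neutrophils, NK cells and mast cells. In the mouse intestine it is known to take the place of CD3ζ in the receptors of some IELs. CD8 binds MHC class I as an αβ or an αα dimer and brings the kinase Lck to the receptor, and many IELs are known for the αα form, whereas CD4 does the same at MHC class II on helper T cells. CD5 is an inhibitory surface receptor set by the strength of receptor signals, and Thy1 is a glycolipid-anchored surface protein of mouse T cells.

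A probe is a strand of 60 bases with the sequence of the transcript. The probes that the comparison of CD3ζ with the Fc receptor gamma chain rests on are shown first. The *Cd247* probe A_52_P173555 and the *Cd3d* probe A_51_P285206 are printed whole, because they lie in the part of each transcript that encodes an ITAM. Capitals mark each half-ITAM, which is a tyrosine codon, 2 codons of any kind and a leucine or isoleucine codon, read in a frame without a stop codon in the probe.
Cd247 A_52_P173555: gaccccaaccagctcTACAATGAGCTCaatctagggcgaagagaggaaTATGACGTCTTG
Cd3d A_51_P285206: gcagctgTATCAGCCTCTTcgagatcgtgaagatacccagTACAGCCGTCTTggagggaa
Only the strand of the transcript was searched. These letters alone are common, since 23.5% of all 41174 probes hold at least 1 such match in some frame, so a match is a description and not a site. On the mm9 build, A_52_P173555 is annotated at chr1:167786567-167787585 on the plus strand and A_51_P285206 at chr9:44794171-44794402 on the plus strand. Both stretches, of 1019 and 232 bases, are longer than the probe, so by its annotation each probe crosses a splice junction.

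Both *Fcer1g* probes lie on the minus strand of chromosome 1, A_51_P405478 at chr1:173159846-173159918 and A_51_P405476 at chr1:173159794-173159853. The last 30 bases of the first and the first 30 of the second are printed, with the 8 bases that the probes share in capitals.
Fcer1g A_51_P405478: ctctacatcagtgtacactggcAGGTCCCC
Fcer1g A_51_P405476: AGGTCCCCatctccgttaaagacttactca
The probes therefore read neighbouring stretches of the same transcript and are not independent measurements. *Cd247* has 4 probes, which read separate stretches. The first 30 bases of the probe annotated to the zeta variant (chr1:167791855-167791914) and of a probe annotated to the eta variant (chr1:167797296-167797355) are printed, because these 2 probes tell the products apart.
Cd247 zeta A_52_P75298: aacggtaagatgtcttaccttcatgaagac
Cd247 eta A_51_P431364: aagaaatctttggttttggctggaaatgga
A_52_P173555 is annotated to the eta variant too, but it lies before both of these stretches on the plus strand. Whether it reads eta alone was not tested. The fourth probe, A_52_P198698, is annotated to an Ensembl transcript at chr1:167807278-167807337.

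The arrays did not fall into groups as labelled. Over 27911 tested probes, IEL 2 had a Pearson correlation of 0.992 with SPL 1 but 0.946 with IEL 1, and SPL 1 and SPL 2 had 0.986. The 2 slides each held 1 array of each group, IEL 1 with SPL 2 on slide 1 and IEL 2 with SPL 1 on slide 2. IEL 2 carried B cell, neutrophil and erythroid transcripts near the levels of the SPL arrays and IEL 1 did not, as given below. A lower purity of IEL 2 and a mix-up of samples cannot be told apart from these values, and the IEL mean of every gene rests on both arrays. The SPL arrays also differed in intestinal epithelium markers, of which 12 of 15 tested fell in the order IEL 1, IEL 2, SPL 1, SPL 2, descending. *Krt8*, for example, was at -1.99 on SPL 1 and -4.64 on SPL 2. Leaving out IEL 2 does not remove this difference within the SPL group. The brightest probe of each member gene is therefore given with and without IEL 2 and within each slide. Between 63.6% and 69.6% of probes were well above background. With all 4 arrays, 0 of 27911 probes (0%) passed an adjusted p of 0.05 in limma, while 1293 (4.63%) were higher and 307 (1.1%) lower in IELs at an unadjusted p under 0.05. The methods' t-test also called 0 after the same adjustment. Without IEL 2, limma called 8.56% of probes higher and 11% lower, with the lone IEL array assumed to vary as the SPL arrays did. Levels below are log2 intensities minus the log2 of the array's 75th percentile, and each fold change is the IEL mean minus the SPL mean on that scale.

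None of the 19 probes differed between IELs and SPLs by the test, and the differences were small. Over the brightest probe of each gene, *Cd3g*, *Cd3e*, *Cd5*, *Cd8a* and *Cd4* had positive log2 fold changes, the largest being 0.52 for *Cd3g*, and *Cd247*, *Cd8b1*, *Thy1*, *Cd3d* and *Fcer1g* had negative ones, the largest being -0.52 for *Cd247*. The adjusted p of the 19 probes lay between 0.634 and 0.858 in limma. The median size of the log2 fold change was 0.38 over the 10 genes, beside 0.32 over all tested probes. Both IEL arrays lay above both SPL arrays for 3 of the 10 genes and below them for 4, beside 24.4% and 24.6% of all tested probes. Positive log2 fold changes were found for 5 of the 10 genes, beside 49.9% of all tested probes, and IEL 1 was the lowest array for 5, beside 38.8%. Read against those shares, the counts are no result about the members. Without IEL 2, 1 of the 19 probes was called, beside 19.5% of all probes. Background correction with normexp, which moved the median log2 fold change of all probes from 0.00 to -0.38, gave *Cd8b1*, *Cd3d*, *Thy1*, *Fcer1g* and *Cd4* the opposite sign, and no scaling changed a sign.

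**Figure D1:**
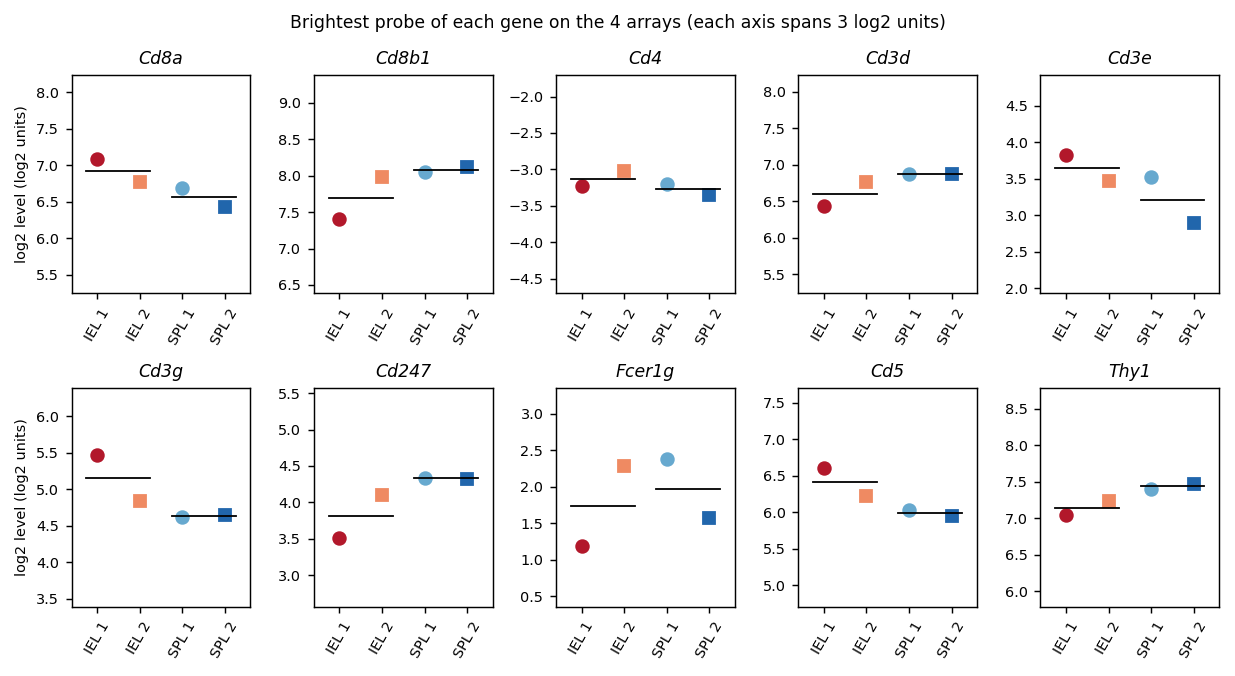
Log2 level of the brightest probe of each of the 10 genes (y axis, log2 intensity over the array's 75th percentile) on each array (x axis), with lines at the group means. IEL 1 was the highest array for *Cd8a*, *Cd3e*, *Cd3g* and *Cd5* and the lowest for *Cd8b1*, *Cd3d*, *Cd247*, *Fcer1g* and *Thy1*, and IEL 2 lay close to SPL 1.

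The 2 coreceptor chains of CD8 pointed in opposite directions. The level of *Cd8a*, the chain found in both forms of CD8, was 7.08 on IEL 1, 6.77 on IEL 2, 6.69 on SPL 1 and 6.43 on SPL 2, so both IEL arrays lay above both SPL arrays. The log2 fold change was 0.37 ± 0.26 (SE, n = 2 per group; 95% interval -0.34 to 1.07), with an adjusted p of 0.638 in limma. It was 0.66 within slide 1, 0.08 within slide 2 and 0.52 without IEL 2 (adjusted p = 0.222). The other 2 *Cd8a* probes gave 0.33 and 0.40, with the IEL arrays above the SPL arrays on each. One of these, A_52_P443334, is spotted 10 times on each array, and its coefficient of variation over those spots was 3.32% to 5.43%. The signals of its spots ran from 9931 to 11827 units on IEL 1 and from 13739 to 15298 units on SPL 2 before scaling.

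*Cd8b1*, which encodes the chain that makes the αβ form and is read by 1 probe, had levels of 7.40 on IEL 1, 7.98 on IEL 2, 8.04 on SPL 1 and 8.11 on SPL 2. IEL 1 stood apart and IEL 2 was close to SPL 1. The log2 fold change was -0.39 ± 0.30 (SE, n = 2 per group; 95% interval -1.19 to 0.41; adjusted p = 0.647, limma). It was -0.72 within slide 1 and -0.07 within slide 2, and -0.68 without IEL 2 (adjusted p = 0.116). The difference of *Cd8b1* minus *Cd8a* within an array was 0.32 on IEL 1, 1.21 on IEL 2, 1.36 on SPL 1 and 1.69 on SPL 2. Scaling an array by a constant factor cannot change it. The 2 probes differ in how they bind, so only the change between arrays can be read. Both IEL arrays were lower than both SPL arrays, by 0.76 on average, with p = 0.33 in an exact two-sided permutation test, the smallest that 2 against 2 arrays allow. The step was 1.37 within slide 1 and 0.15 within slide 2, lower in the IEL array on both.

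*Cd4*, the coreceptor of helper T cells, was dim on every array. Its probe with 10 spots read 34.0 units on IEL 1, 53.7 on IEL 2, 52.5 on SPL 1 and 60.8 on SPL 2, where the lowest signals called well above background were 6.95 to 7.92 units and the *Cd8a* probe with 10 spots read between 10730 and 14331 units. In levels these were -3.23, -3.02, -3.20 and -3.35, and the log2 fold change was 0.15 ± 0.24 (SE, n = 2 per group; 95% interval -0.50 to 0.79). It was 0.12 within slide 1, 0.18 within slide 2 and 0.04 without IEL 2. Spots of this probe varied by 21.5% on IEL 1 and 21.4% on SPL 2, more than those of *Cd8a*. The second *Cd4* probe read 8.34, 11.4, 17.6 and 6.46 units in the same order and was not well above background on SPL 2. Among other helper T cell genes, *Zbtb7b*, the factor that sets the helper fate, had levels of -1.15, -1.86, -1.89 and -2.76, *Foxp3* of regulatory T cells was well above background on 3 arrays, and *Cd40lg* on 0. *Cd4* minus *Cd8b1* was -10.63 and -11.00 on the IEL arrays and -11.24 and -11.46 on the SPL arrays, so both IEL arrays were higher (0.54 on average, exact permutation p = 0.33).

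The 3 CD3 genes did not point the same way. *Cd3g*, the CD3γ chain, had levels of 5.46 on IEL 1, 4.83 on IEL 2, 4.61 on SPL 1 and 4.64 on SPL 2, the IEL arrays being above the SPL arrays. Its log2 fold change was 0.52 ± 0.31 (SE, n = 2 per group; 95% interval -0.31 to 1.35; adjusted p = 0.634, limma), and 0.84 without IEL 2 (adjusted p = 0.0738). It was 0.82 within slide 1, 0.22 within slide 2 and 0.20 without IEL 1. *Cd3e*, the CD3ε chain, had levels of 3.83, 3.47, 3.52 and 2.89, and the groups overlapped, since IEL 2 was below SPL 1. Its log2 fold change was 0.44 ± 0.33 (SE, n = 2 per group), or 0.94 within slide 1, -0.05 within slide 2, 0.62 without IEL 2 and 0.13 without SPL 2. A second *Cd3e* probe, drawn from a cDNA annotated as keeping an intron, had levels of -0.72 and -0.65 on the IEL arrays and -0.92 and -0.97 on the SPL arrays, with a log2 fold change of 0.26 ± 0.22 (SE, n = 2 per group).

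*Cd3d*, the CD3δ chain whose ITAM probe is printed above, had levels of 6.43 on IEL 1, 6.76 on IEL 2, and 6.87 on both SPL arrays. The IEL arrays were below the SPL arrays, with a log2 fold change of -0.27 ± 0.25 (SE, n = 2 per group; adjusted p = 0.682, limma). It was -0.44 within slide 1 and -0.11 within slide 2, and -0.44 without IEL 2. *Cd5* had levels of 6.61, 6.22, 6.04 and 5.96, both IEL arrays being above both SPL arrays, and a log2 fold change of 0.42 ± 0.26 (SE, n = 2 per group), or 0.65 within slide 1, 0.18 within slide 2, 0.61 without IEL 2 and 0.22 without IEL 1. *Thy1* had levels of 7.04, 7.23, 7.40 and 7.46 on its brightest probe, both IEL arrays being below, and a log2 fold change of -0.30 ± 0.23 (SE, n = 2 per group), or -0.42 within slide 1, -0.17 within slide 2 and -0.39 without IEL 2. Its second probe gave -0.44, with the same order of groups. On the brightest probes, none of the 10 genes differed by more than 0.24 within slide 2. Within slide 1 the largest such difference was 0.94, for *Cd3e*. Over all 19 probes the largest differences in size were 0.95 within slide 2 and 1.64 within slide 1.

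**Figure D2:**
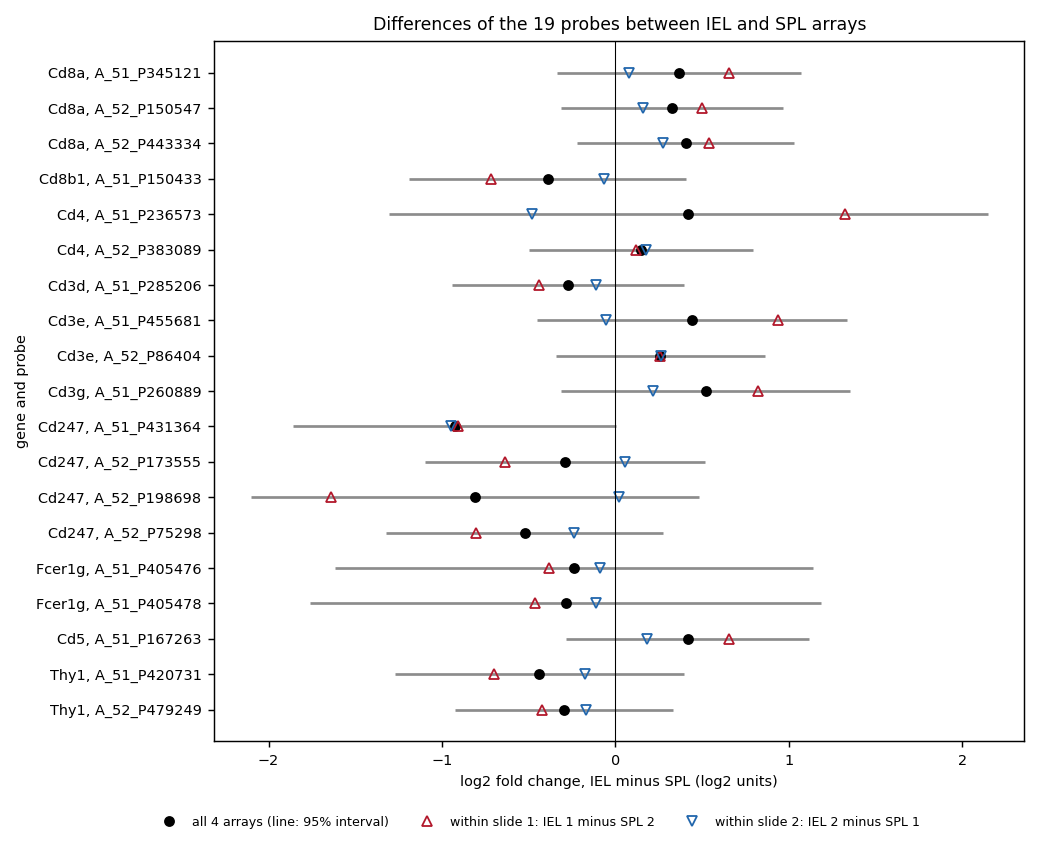
Log2 fold change of each of the 19 probes (x axis, IEL minus SPL; dots with 95% intervals from limma) beside the difference within each slide (triangles). All 19 intervals include 0, and most values within slide 2 lie nearer to 0 than those within slide 1, the exceptions being the *Cd247* eta probe A_51_P431364, the *Cd3e* probe of the retained intron cDNA and the *Cd4* probe with 10 spots.

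All 4 *Cd247* probes had lower means in IELs, but they did not show the same pattern of arrays. The zeta probe had levels of 3.52 on IEL 1, 4.10 on IEL 2, 4.34 on SPL 1 and 4.33 on SPL 2. Both IEL arrays were below the SPL arrays, which differed from each other by less than 0.02. The log2 fold change was -0.52 ± 0.30 (SE, n = 2 per group; 95% interval -1.32 to 0.27; adjusted p = 0.634, limma), and it was -0.81 without IEL 2 (adjusted p = 0.0784) and -0.23 without IEL 1. The IEL array of slide 1 was below its SPL array (-0.81), and so was that of slide 2 (-0.24).

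The ITAM probe of *Cd247* printed above had levels of 0.79, 1.37, 1.32 and 1.42, so that IEL 1 alone was low and IEL 2 lay between the SPL arrays. A_52_P198698 had levels of -0.89, 0.26, 0.24 and 0.75, again with IEL 1 low and IEL 2 between the SPL arrays. It was the 1 member probe called without IEL 2, with a log2 fold change of -1.38 ± 0.31 (SE, 1 against 2 arrays; adjusted p = 0.0441, limma).

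The second probe annotated to eta was dim, at 33.3 units on IEL 1, 31.2 on IEL 2, 66.4 on SPL 1 and 121 on SPL 2, and well above background on all 4 arrays. Here both IEL arrays were low, at levels of -3.23 and -3.80 against -2.85 and -2.32. The log2 fold change was -0.93 ± 0.35 (SE, n = 2 per group), the largest in size of the 19, with an interval of -1.86 to 0.00, an unadjusted p of 0.0503 and an adjusted p of 0.634 in limma. Its difference was -0.91 within slide 1 and -0.95 within slide 2. The zeta probe minus this eta probe was 6.75 on IEL 1, 7.90 on IEL 2, 7.19 on SPL 1 and 6.65 on SPL 2, so the groups overlapped in that difference (exact permutation p = 0.67).

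*Fcer1g* followed the arrays in another order. Its brighter probe had levels of 1.19 on IEL 1, 2.29 on IEL 2, 2.38 on SPL 1 and 1.57 on SPL 2, and its second probe -0.05, 1.16, 1.27 and 0.41. IEL 1 was the lowest array and SPL 2 the next, and the groups overlapped on both probes. The log2 fold change was -0.24 ± 0.51 (SE, n = 2 per group; 95% interval -1.62 to 1.14; adjusted p = 0.858, limma). It was -0.39 within slide 1, -0.09 within slide 2, -0.79 without IEL 2, 0.31 without IEL 1 and 0.16 without SPL 1. The 2 IEL arrays differed from each other by more than the group means did, so these arrays do not place *Fcer1g* higher or lower in IELs.

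The level of *Cd247* zeta minus *Fcer1g* within an array was 2.33 on IEL 1, 1.81 on IEL 2, 1.96 on SPL 1 and 2.75 on SPL 2. The IEL values lay around the lower SPL value and below the higher one. The IEL mean was 2.07 ± 0.37 (SD, n = 2) and the SPL mean 2.36 ± 0.56 (SD, n = 2), a difference of -0.29 with p = 0.67 in the exact two-sided permutation test. Benjamini-Hochberg adjustment over the 3 within-array differences gave 0.67 for this one and 0.50 for the other two. The difference was -0.42 within slide 1, -0.15 within slide 2, -0.02 without IEL 2 and 0.11 without SPL 2. Over all 8 pairs of a *Cd247* and an *Fcer1g* probe, it was between -0.69 and 0.00. The dim eta probe A_51_P431364 gave the most negative values, and the ITAM probe A_52_P173555 gave those nearest to 0.00.

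**Figure D3:**
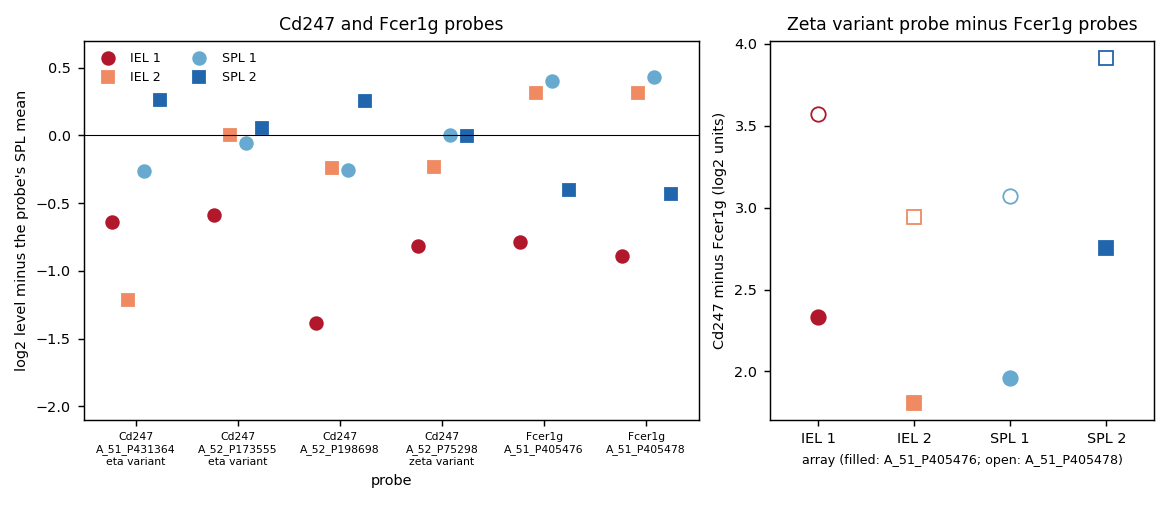
Left, log2 level of each *Cd247* and *Fcer1g* probe on each array minus the probe's SPL mean (y axis, log2 units). Right, the zeta variant probe minus each *Fcer1g* probe (y axis, log2 units) by array, where SPL 2 was highest, IEL 2 lowest, and IEL 1 and SPL 1 lay between them for both *Fcer1g* probes.

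Several genes of cells that use *Fcer1g* were also lowest on IEL 1, though not all had its order of arrays. The partners of the Fc receptor gamma chain and its related adaptors were read from lists of 10 and 2 genes. *Tyrobp*, which encodes the adaptor DAP12, had levels of 0.02 on IEL 1, 2.74 on IEL 2, 2.85 on SPL 1 and 2.43 on SPL 2. *Hcst*, which encodes the adaptor DAP10, differed little, at 5.55, 5.44, 5.46 and 5.31. Of the partners, 9 were tested, 0 were called with all arrays, 2 had higher and 7 lower means in IELs, and the median log2 fold change was -1.66, beside 0.00 for all tested probes. That median is a fitted value, since 4 of the 9 were not well above background on IEL 1. IEL 1 was the lowest array for 7 of the 9, beside 38.8% of all tested probes, and 4 had the order of *Fcer1g*, beside 7.18%. *Oscar* and *Fcer1a* were higher in IELs on average, by 0.30 and 0.57.

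*Fcgr3*, a low-affinity receptor for IgG, had levels of -4.22 on IEL 1, -0.42 on IEL 2, -0.16 on SPL 1 and -0.65 on SPL 2. *Fcgr1*, the high-affinity one, had -5.99, -1.74, -1.26 and -2.27. *Clec4e*, a lectin receptor of myeloid cells, had -7.54, -2.62, -2.41 and -1.81, and *Ncr1*, an activating receptor of NK cells, had -7.05, -4.53, -3.99 and -4.14. IEL 1 was far below the other 3 arrays for each of these genes, and *Fcgr1*, *Clec4e* and *Ncr1* were not well above background on it. Without IEL 2, 6 of the 9 partners and *Tyrobp* were called lower in the IEL array, beside 11% of all probes, and the call rests on IEL 1 alone.

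Markers of macrophages went with *Fcer1g* across the arrays. Of 10 tested, 7 had the same order of arrays as *Fcer1g* (IEL 1, SPL 2, IEL 2 and SPL 1, ascending), beside 7.18% of all tested probes. That order was also found for 4 of 9 B cell and 3 of 8 NK cell markers, so it was not limited to macrophage markers. It was found for 1 of 10 mast cell and basophil markers. Of the neutrophil, dendritic cell and erythroid markers, 0 of 8, 0 of 7 and 0 of 7 had it. *Csf1r*, the receptor that macrophages need to live, had levels of -4.87 on IEL 1, 0.53 on IEL 2, 0.93 on SPL 1 and -0.25 on SPL 2. The summed intensity of the list was 48.7 and 40.0 times the 75th percentile on the IEL arrays and 46.9 and 44.3 times on the SPL arrays, but *Lyz2* made up most of it, and without *Lyz2* the sums were 1.37 on IEL 1, 12.0 on IEL 2, 14.6 on SPL 1 and 7.33 on SPL 2. *C1qa* was not well above background on IEL 1 and *Vsig4* on none of the arrays. The part of macrophage RNA in the *Fcer1g* values was not tested.

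Markers of other cells that carry or lack *Fcer1g* also set IEL 1 apart. The sum over 9 neutrophil markers was 0.25 on IEL 1, 36.5 on IEL 2, 45.3 on SPL 1 and 51.1 on SPL 2, with 2, 8, 8 and 8 of the 9 well above background, and *Elane* on 0 arrays. *S100a8*, an abundant neutrophil gene, had levels of -6.41 on IEL 1, 2.34 on IEL 2, 2.79 on SPL 1 and 3.08 on SPL 2. The 10 B cell markers summed to 6.90 on IEL 1 and to 89.7 on IEL 2, beside 112 on SPL 1 and 98.7 on SPL 2, *Ms4a1* (CD20) having levels of -6.15, 2.27, 2.60 and 2.40. The 7 erythroid markers found summed to 1.17, 75.9, 100.2 and 117. IEL 1 was the lowest array for all 24 tested genes of these 3 lists, beside 38.8% of all tested probes. IEL 2 was closer to the SPL arrays than to IEL 1 in each sum.

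NK cell markers summed to 302 and 187 on the IEL arrays and to 166 and 127 on the SPL arrays, led by *Nkg7*, a granule gene that cytotoxic T cells also express, and *Klrd1*, which together make up most of each sum. Of the 8 NK markers 3 had higher and 5 lower means in IELs. IEL 1 was the lowest array for 5, beside 38.8% of all tested probes, with *Klra8* at -4.54, -0.91, -0.68 and -0.76. Mast cell and basophil markers were low on every array, with sums of 0.69 to 1.20, and *Mcpt2*, *Tpsab1* and *Ms4a2* were well above background on 0 arrays. Dendritic cell markers summed to 12.6, 34.4, 43.7 and 57.1. On all arrays but IEL 1 most of this was *Ccr7*, which naive T cells also express and which had levels of 1.60, 4.89, 5.33 and 5.79. *Itgax* ran the other way, at 3.12, 1.91, 1.45 and 0.29, and 4 of the 7 tested had higher means in IELs. The 17 intestinal epithelium markers summed to 64.3 on IEL 1, 10.6 on IEL 2, 7.67 on SPL 1 and 5.81 on SPL 2. On both SPL arrays most of this was *Lyz1*, which had levels of 4.66, 1.97, 2.30 and 2.35 and not the order of most other markers. How far the cells of these lists contribute to the members' values was not tested.

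**Figure D4:**
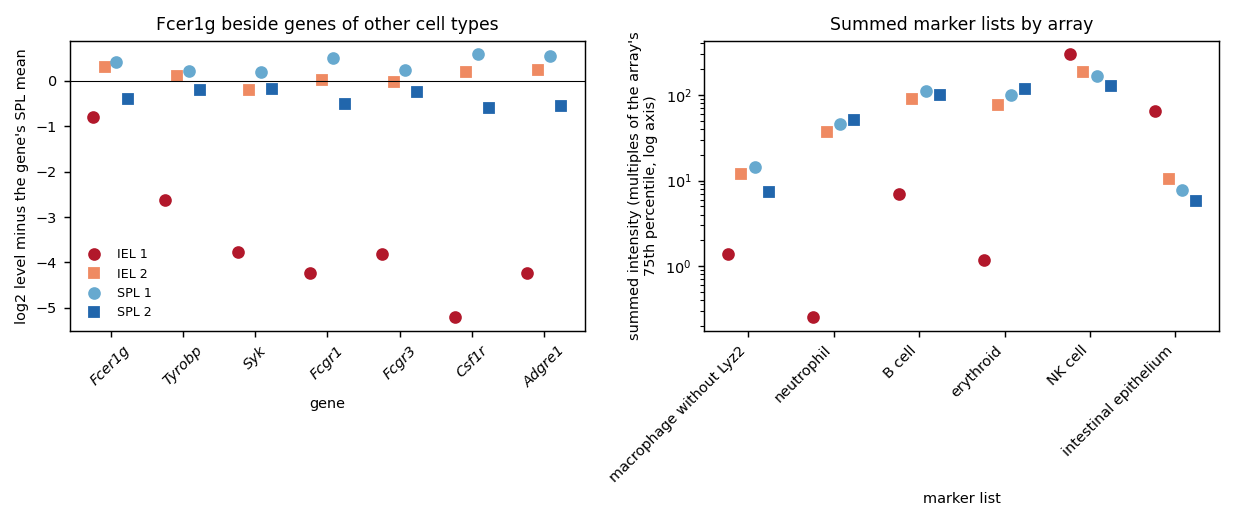
Left, log2 levels of *Fcer1g* and of 6 genes of cells that use it, minus each gene's SPL mean (y axis, log2 units). IEL 1 was lowest for all 7, but the 6 genes were picked by hand. In their lists IEL 1 was lowest for 7 of 9 tested partners, 1 of 2 adaptors, 8 of 10 macrophage markers and 5 of 23 signalling genes. The share over all tested probes was 38.8%. Right, summed intensity of 6 marker lists by array (y axis, multiples of the 75th percentile, log axis). IEL 1 is lowest for macrophage (without *Lyz2*), neutrophil, B cell and erythroid markers and highest for the epithelial and NK cell sums. The NK cell sum is mostly *Nkg7* and *Klrd1*, and the epithelial sum on the SPL arrays is mostly *Lyz1*.

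The chains that pair with CD3 were read by 17 probes for 13 genes named as T cell receptor chains, of which 8 were tested. The α and β chain genes tested had log2 fold changes between -0.93 and 0.04 on their brightest probes, and 0 were called. *Trav12n-2*, an α chain variable gene, had levels of -0.62 and -0.75 on the IEL arrays and 0.40 and 0.08 on the SPL arrays, with a log2 fold change of -0.93 ± 0.25 (SE, n = 2 per group; adjusted p = 0.634, limma), and it was lower in the IEL array within both slides. A probe named for the β chain joining genes (*Tcrb-J*) had levels of -0.87 on IEL 1 and 0.28, 0.51 and 0.35 on IEL 2, SPL 1 and SPL 2. *Trav9n-2* had -3.25 on IEL 1 and -2.43, -2.44 and -2.54 on the others. Variable genes share sequence, so reads of one family member by another's probe cannot be separated.

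*Trgv2*, a variable gene of the γ chain that γδ T cells use, differed most. Its brightest probe had levels of 4.12 on IEL 1, 3.13 on IEL 2, 2.00 on SPL 1 and -2.03 on SPL 2, with both IEL arrays above both SPL arrays. The log2 fold change was 3.64 ± 1.42 (SE, n = 2 per group; adjusted p = 0.634, limma), 6.15 within slide 1 and 1.13 within slide 2. Its other 2 probes gave 4.45 and 3.78 with the same order of arrays, which 13.8% of all tested probes had. The probe giving 3.78 was not well above background on SPL 2, so that its value is fitted and no bound. Of the 15 intestinal epithelium markers tested, 12 had that order as well, an example being the keratin *Krt8* at 2.73, -0.51, -1.99 and -4.64, and the part of other cells in the *Trgv2* values was not tested.

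Downstream of the ITAMs, the 23 genes of proximal T cell receptor signalling were all tested and 0 were called, 16 with positive and 7 with negative log2 fold changes and a median of 0.10. *Syk*, the kinase that binds ITAMs in B cells, myeloid cells and some T cells, had levels of -4.26 on IEL 1, -0.68 on IEL 2, -0.30 on SPL 1 and -0.67 on SPL 2, with IEL 1 far below the others. Its close relative *Zap70*, which binds the ITAMs of CD3 in T cells, had 4.78, 4.50, 4.49 and 3.98. *Ptpn22*, a phosphatase that restrains receptor signals, had levels of 7.03, 5.56, 4.93 and 4.81, with both IEL arrays higher. The adaptor gene *Trat1*, whose product joins the receptor complex, had 2.90, 1.78, 1.15 and 0.93. *Lck* differed little, at 5.91, 6.17, 6.11 and 5.93. Without IEL 2, 5 of the 23 were called, beside 19.5% of all probes, a share that is near theirs. Among them *Ptpn22* and *Trat1* were higher and *Syk* and *Cblb* lower.

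Among 14 genes of T cell identity outside the complex, 0 were called, 6 had positive and 8 negative log2 fold changes, and the median was -0.21. *Cd7*, a surface protein of T and NK cells, had levels of 6.49 on IEL 1, 5.51 on IEL 2, 4.77 on SPL 1 and 3.69 on SPL 2. *Lef1* and *Tcf7*, transcription factors of naive T cells, had 1.21, 5.23, 5.52 and 5.69 and 2.45, 3.85, 4.32 and 4.30. *Cd2*, an adhesion receptor, had 2.27, 3.76, 4.14 and 4.15. For each of these 4 genes the IEL arrays did not overlap the SPL arrays, as for 49% of all tested probes, and IEL 2 lay nearer to the SPL arrays than to IEL 1 for *Lef1*, *Tcf7* and *Cd2*. Without IEL 2, 5 of the 14 were called, beside 19.5% of all probes.

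Profiles most like those of 3 members were sought over the 4 arrays among 24030 probes with a RefSeq gene name, by the Euclidean distance of centred levels. The nearest to *Cd247* zeta were *Exosc4*, *Ubl4*, *Dennd2d*, *Gstz1* and *Ahnak*, at distances of 0.026 to 0.035, where the *Cd247* profile itself lies 0.66 from a flat one. The nearest to *Fcer1g* were *Zfp74*, *Itga4*, *Wfdc5*, *C2* and *Nrp2*, at 0.017 to 0.10, and the nearest to *Cd8b1* were *Mapk14*, *Csrp2bp*, *Nfx1* and *Abcd3*, at 0.0080 to 0.022. With 4 points per profile many probes come close, so these names describe the arrays only.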

How the data were processed

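Each sorted sample (2 of CD8αβ+ IELs, 2 of CD8αβ+ SPLs) was labelled and hybridised to 1 of 4 Agilent 1-color mouse arrays. Per the file headers the intensity values deposited for each spot (processed, mean and local background signals) were written by Feature Extraction 10.7.3.1, the submitters' processing notes naming 10.7.1.1, and carry no scaling across samples. A table of log2 values by the authors was deposited too, whose ranks match the scanner values and whose normalization is not given in the sources used here (medians 5.57 to 5.59). The paper's methods name another make of chip.

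The log2 processed intensity of unmarked spots was scaled by each array's 75th percentile over its 43379 non-control spots (312 and 435 units for IEL 1 and 2, 479 and 605 for SPL 1 and 2) and averaged per probe. No spot of the members was saturated. A probe entered the test if both arrays of IELs or both of SPLs measured it well above background. Tests used R 4.3.3 with limma 3.58.1, and files were read with the packages data.table (version 1.17.8) and jsonlite (version 2.0.0). The linear model had no block and 2 residual degrees of freedom, and tests were two-sided, with Benjamini-Hochberg adjustment over all 27911 probes at 0.05. The code was tested on simulated data. The brightest tested probe stood for a gene. Per the paper each sample was sorted from several mice, and p-values measure the spread between such samples. The number of arrays limits the precision, and so does the spread between IEL 1 and IEL 2, since 5452 probes were called without IEL 2. The correlation of deviations was -0.025 by replicate number and 0.025 by slide. With 2 arrays per group these are the same value with opposite signs, so it cannot settle whether samples were paired.

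The names come from the arrays' annotation on mm9, and 14 of the 19 probes matched RefSeq (GRCm38.p6) by accession, all with the same symbol. The members and lists were chosen with earlier results of these data known. Beside the members, at most 4 tested genes per list with the largest log2 fold changes were to be named, and the 5 nearest profiles of 3 members. Some genes that this rule picks are not reported here. *Lck*, *Zap70*, *Cblb*, *Oscar*, *Fcer1a*, *Klrd1*, *Lyz1*, *Lyz2* and markers near background are named in addition, after their values were seen. Alternatives were other scalings, normexp background correction with an offset of 50, with or without spots over 20 units below their local background, the authors' log2 values, other filters, marked spots kept, a trend, the methods' t-test, replicate and slide blocks, averaging all probes of a gene, and leaving out each sample. The list counts without IEL 2 and the other probe pairs were added after the data were seen.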

Additional observations from a re-analysis of the deposited data

How the results depend on the processing

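With all 4 arrays, 0 probes were called in either direction under every setting tried. Leaving out 1 sample gave 0 to 2389 probes higher and 0 to 3063 lower in IELs, the highest both without IEL 2 and 0 without any other sample. *Cd8a*, *Cd3g*, *Cd5* and *Cd247* kept their sign in all settings, and no brightest probe of the 10 genes was called in any, the lowest adjusted p being 0.0738 for *Cd3g* without IEL 2. Normexp background correction turned the log2 fold change to 0.11 for *Cd8b1*, -0.72 for *Cd4*, 0.23 for *Cd3d*, 0.13 for *Fcer1g* and 0.11 for *Thy1*, and *Cd4* minus *Cd8b1* to -0.83. The same correction without spots far below their local background turned none of these, and gave the median of all probes as 0.15. *Cd3e* was -0.053 within slide 2. Leaving out 1 sample, *Fcer1g* ranged from -0.79 to 0.31 and *Cd247* minus *Fcer1g* from -0.68 to 0.11. The causes were not tested. The replicate numbers share no known source, and with them as a replicate block the log2 fold changes were the same, with 0 calls (*Cd247* -0.52 at an adjusted p of 0.75). With 2 arrays per group the test resolved no difference of the size seen here, the median standard error being 0.30. *Cd4* and the eta probe A_51_P431364 were dim.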
